A study of Mus musculus with 6 samples.

Results

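The receptors for acetylcholine were followed through hippocampal RNA-seq of mice that express a mutant Braf in mature excitatory neurons. The genes were chosen by symbol, and all 9 were among the 20620 genes listed: the 5 muscarinic receptors Chrm1, Chrm2, Chrm3, Chrm4 and Chrm5, and the nicotinic subunits Chrna4, Chrna5, Chrna7 and Chrnb2. All 9 also passed the filter on low counts, as did 20604 genes in all. The 3 n-Braf mice carried Braf Q241R/+ with CaMKII-Cre and were 32 to 34 weeks old. The 3 control mice carried Braf Q241R Neo/+, in which the Neo cassette is retained, and were 31 to 32 weeks old. All 6 were male, on a C57BL/6J background, and gave 1 library each, so each group has 3 animals. Both groups carry the mutant allele, the Cre transgene and the cassette separate the groups together, and wild-type mice were not analysed here. The CaMKII promoter is meant to limit recombination to excitatory neurons. Bulk tissue also holds RNA of interneurons and glia, in which the allele should then not be recombined. Recombination by cell type was not measured here.

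Acetylcholine reaches the hippocampus mainly along axons from the medial septum and acts on receptor classes of different build. Muscarinic receptors couple to G proteins: Chrm1, Chrm3 and Chrm5 act through Gq and phospholipase C, which among other effects closes the M-current potassium channels, while Chrm2 and Chrm4 act through Gi and lower cyclic AMP. Nicotinic receptors are cation channels of several subunits. Chrna7 forms channels of its own, Chrna4 and Chrnb2 assemble into the most common heteromeric channel of the brain, and Chrna5 joins such channels as an accessory subunit.

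Assigned counts per library ran from 25227112 to 31832245. Braf, the targeted gene, was at 185, 184 and 205 CPM in n-Braf, against 116, 123 and 116 CPM in the controls, where CPM is the count set to a common library total after scaling by trimmed means of M values (TMM). Its log2 fold change was 0.69 (SE 0.07), with an adjusted p of 0.0533 in edgeR's quasi-likelihood test with Benjamini-Hochberg adjustment, just outside the threshold of 0.05. DESeq2 gave Braf an adjusted p of 6.25e-14, and the authors' deposited adjusted p for it is 2.13e-08. Of 20 alternative settings, Braf passed the threshold in 4 and stayed outside it in 16. All 8 markers fixed for hippocampal pyramidal and granule neurons were detected, among them the granule neuron factor Prox1 at 106 ± 36.2 CPM in n-Braf, against 108 ± 14.0 CPM in controls (SD, n = 3 each). Control 1 stood apart in a chi-square summed over genes, in which abundant genes can weigh most. Its counts differed from those of the other libraries by a chi-square per degree of freedom of 51.1 to 69.2, where the other pairs gave 8.89 to 14.1. The 18S ribosomal RNA gene Rn18s took 3.26% of the counts of control 1, and 0.534% to 0.782% in the other libraries. The part of Rn18s in that difference was not tested. Controls 1 and 2 stood apart in markers of the choroid plexus, the secretory epithelium of the ventricles. Their 7 tested markers summed to between 84.6 and 99.1 CPM in n-Braf and to 3401, 1909 and 130.9 CPM in controls 1, 2 and 3. Ependymal markers summed to 14.9 to 18.7 CPM in n-Braf and to 25.2 to 49.1 CPM in the controls. Astrocyte markers summed to 4432 to 4519 CPM in n-Braf and to 3896 to 4177 CPM in the controls. Most of that sum was the glutamate transporter gene Slc1a2, which averaged 3661 ± 18.7 CPM in n-Braf and 3282 ± 118 CPM in controls (SD, n = 3 each). The mean log2 CPM of the 6 astrocyte markers overlapped between the groups, and Gfap had a log2 fold change of 0.01 (SE 0.09). Oligodendrocyte sums overlapped, at 1414 to 1930 CPM in n-Braf and 1658 to 2149 CPM in the controls. All 8 oligodendrocyte markers had log2 fold changes below 0, from -0.40 to -0.22, with an unadjusted p under 0.05 in 2 and 0 called. With the choroid plexus marker level as a covariate, 0 of the 9 receptors were called, and the log2 fold changes of Chrm2 (-0.046), Chrm4 (-0.31) and Chrm5 (0.57) changed sign. The part of the ependymal, astrocyte and oligodendrocyte lists in the receptors' levels was not tested.

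The promoters of Chrnb2 and Chrna4 are shown because their products form 1 channel and both ran higher in n-Braf 1 and 2 than in n-Braf 3. Each window covers 250 bases before and 50 after the RefSeq start on GRCm38.p6, 5′ to 3′ on the gene's own strand. The first is chr3:89764583-89764882 and the other chr2:181039128-181039427, both on the minus strand. Capitals mark the core of the cyclic AMP response element.

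Chrnb2: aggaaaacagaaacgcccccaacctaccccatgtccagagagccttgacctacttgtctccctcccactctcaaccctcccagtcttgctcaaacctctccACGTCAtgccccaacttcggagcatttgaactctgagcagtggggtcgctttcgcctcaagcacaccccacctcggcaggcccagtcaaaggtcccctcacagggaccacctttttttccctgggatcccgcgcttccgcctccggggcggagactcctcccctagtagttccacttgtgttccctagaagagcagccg

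Chrna4: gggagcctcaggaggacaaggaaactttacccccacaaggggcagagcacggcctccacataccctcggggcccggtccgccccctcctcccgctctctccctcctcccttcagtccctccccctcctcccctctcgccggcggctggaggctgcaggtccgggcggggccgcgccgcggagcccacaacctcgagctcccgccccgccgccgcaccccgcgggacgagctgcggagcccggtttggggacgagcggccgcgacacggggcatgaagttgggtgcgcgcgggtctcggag

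Windows were matched for 8 of the 9 genes, all but Chrm1, and Chrna5 had 2, giving 9 in all. Motifs were searched on both strands. The core TGACGT, which lies inside the full element TGACGTCA, was found in the Chrnb2 window and in 7.51% of 32851 promoters. The full element was in 0 of the 9 windows and in 1.79% of all promoters. The EGR motif GCGGGGGCG was in the Chrna7 window and in 2.91% of all promoters. The EGR motif GCGTGGGCG (0.612% of all promoters), the AP-1 motif TGANTCA (7.81%), the ETS motif CCGGAAG (8.86%) and the first letters of the RE1 silencer, TTCAGCACC (0.371%), were in 0 of the 9. The Chrna4 window had 33 CG pairs and the Chrnb2 window 12, beside a median of 7 over all promoters.

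No acetylcholine receptor gene passed the threshold between n-Braf and control. Adjusted over all genes tested, edgeR's quasi-likelihood test called 0 of the 9, with adjusted p from 0.721 to 0.998, and it called 0% of all genes. DESeq2 and limma-voom also called 0 of the 9, while DESeq2 called 0.425% of all genes with an adjusted p. In edgeR's quasi-likelihood test an unadjusted p under 0.05 was found in 2 of 9, Chrm1 and Chrnb2, where 6.82% of all genes were that low. The authors' deposited unadjusted p for both genes is above 0.05. The median log2 fold change of the 9 was 0.04, and -0.0042 over all genes. In 7 of the 9 the log2 fold change was above 0, compared with 49% of all genes. Some of the 7 were close to 0, among them Chrm4 (0.01) and Chrna7 (0.02). The groups did not overlap in 1 of the 9, Chrm1, which was higher in n-Braf. Of all genes, 11.5% lay apart in either direction and 6.09% in that direction. In bulk tissue, fewer cells of a type and less RNA per cell cannot be told apart.

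**Figure D1:**
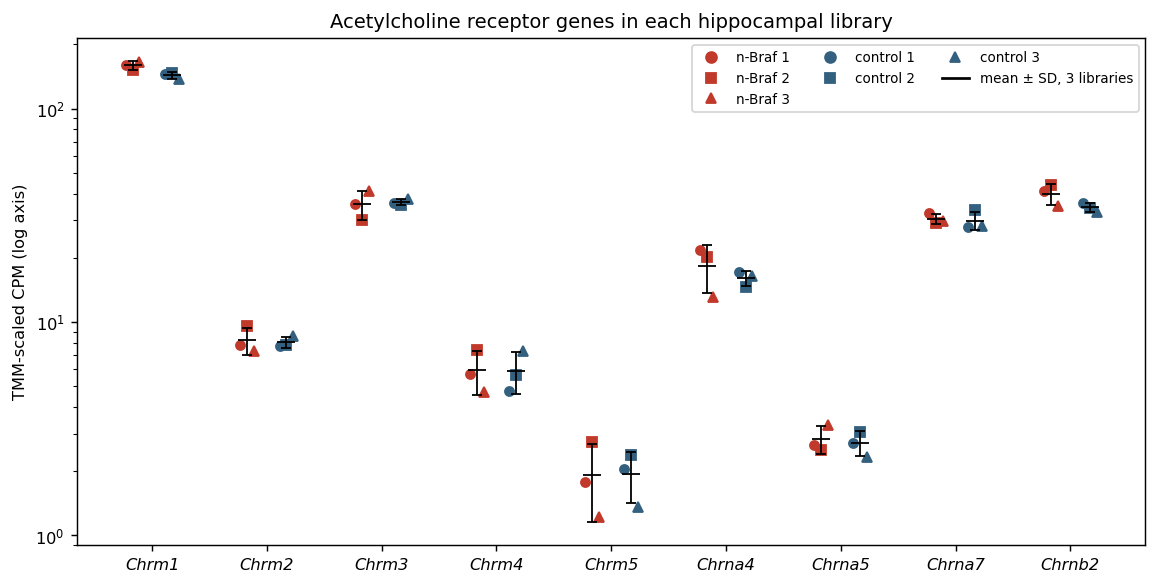
TMM-scaled CPM (log axis) of the 9 acetylcholine receptor genes in each library, n-Braf in red and control in blue, with the symbol giving the replicate and black bars the mean ± SD of 3 libraries. The groups lie apart only in Chrm1, by a small margin, and the n-Braf libraries spread widely in Chrm4, Chrm5 and Chrna4. The controls also spread widely in Chrm4 (SD 22.2% of the mean, 23.2% in n-Braf) and Chrm5 (27.1%, 39.9% in n-Braf), but less in Chrna4 (7.93%, 25.4% in n-Braf).

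Among the Gq-coupled receptors, Chrm1 was the most abundant. Chrm1, the main muscarinic receptor of forebrain pyramidal neurons, lies on chromosome 19 at 8663789 to 8683587 (plus strand; GENCODE M21, GRCm38). It was at 160, 152 and 166 CPM in n-Braf, against 145, 147 and 137 CPM in the controls. Every n-Braf library was above every control, and the gap between the nearest of them was smaller than the spread within either group. The fold was 1.11 (95% interval 1.01 to 1.23), the log2 fold change 0.15 (SE 0.06), the unadjusted p 0.0387 and the adjusted p 0.721 in the same test. Leaving out 1 library at a time gave log2 fold changes of 0.12 to 0.18. The log2 fold change was 0.20 (SE 0.07) with the mean neocortex marker level as a covariate and 0.21 (SE 0.10) with that of the choroid plexus, each with an adjusted p of at least 0.998, and 0.06 (SE 0.08) with age. The authors' deposited table gives Chrm1 a log2 fold change of 0.15, an unadjusted p of 0.1055 and an adjusted p of 0.9997.

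Chrm3, a Gq-coupled receptor also widespread in hippocampal neurons, spans 9875486 to 10360847 of chromosome 13 on its minus strand. It was at 35.5, 30.1 and 41.3 CPM in n-Braf, against 36.2, 35.4 and 37.7 CPM in the controls. The n-Braf libraries lay on either side of all 3 controls, with an SD of 15.7% of the mean in n-Braf and 3.24% in the controls. The log2 fold change was -0.031 (SE 0.11), a fold of 0.979 with a 95% interval of 0.825 to 1.16. Without n-Braf 2 it was 0.077.

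Chrm5, known from midbrain dopamine neurons and scarce in the forebrain, spans 112479171 to 112480769 of chromosome 2. It was covered by 57, 87 and 36 counts in n-Braf, against 55, 64 and 35 in the controls. That was 1.78, 2.74 and 1.23 CPM in n-Braf, against 2.05, 2.39 and 1.36 CPM in the controls, with overlapping groups. Its 95% interval for the fold, 0.586 to 1.67, was the widest of the 9. Its SD was 39.9% of the mean in n-Braf and 27.1% in the controls. Its log2 fold change of -0.014 turned positive without n-Braf 1 (0.034), n-Braf 3 (0.22), control 1 (0.029) or control 2 (0.17).

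The Gi-coupled receptors showed no difference beyond the spread of the libraries. Chrm2, an autoreceptor of cholinergic terminals that is also carried by interneurons, lies on chromosome 6 at 36388084 to 36528414. It is 3074822 bases from Braf on the same chromosome. It was at 7.82, 9.57 and 7.29 CPM in n-Braf, against 7.68, 7.78 and 8.60 CPM in the controls. Both the highest and the lowest value were in n-Braf libraries. It had a log2 fold change of 0.04 (SE 0.14), a 95% interval of 0.826 to 1.27 for the fold, and a log2 fold change of -0.087 without n-Braf 2.

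Chrm4, a Gi-coupled receptor best known from striatal projection neurons, spans 91927249 to 91928688 of chromosome 2. It was at 5.70, 7.43 and 4.70 CPM in n-Braf, against 4.74, 5.65 and 7.32 CPM in the controls. Within each group the highest library was about as far above the lowest as in the other group, with SDs of 23.2% of the mean in n-Braf and 22.2% in the controls. Its log2 fold change was 0.01 (SE 0.22) and the interval of the fold 0.719 to 1.41. Its direction turned without n-Braf 2 (-0.18), control 1 (-0.13) or control 2 (-0.019). With age as a covariate it was 0.50 (SE 0.21), with an adjusted p of 0.725.

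**Figure D2:**
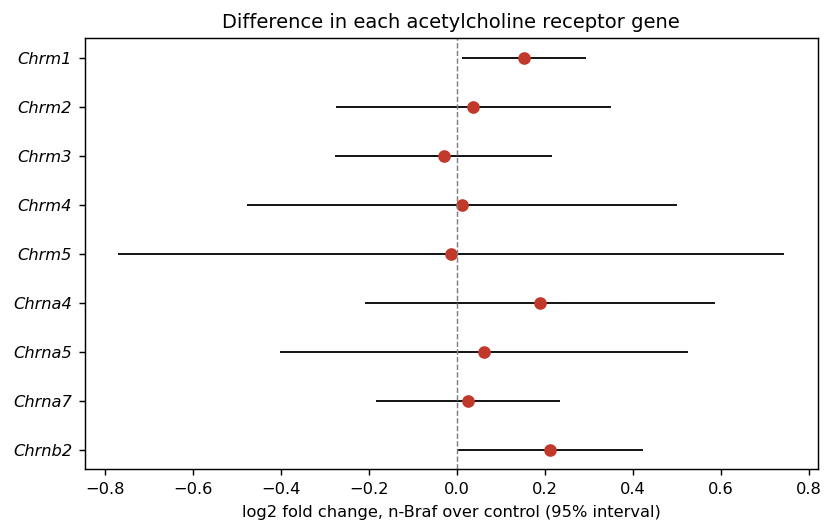
Log2 fold change of each gene, n-Braf over control (point), with its 95% interval (line) from edgeR's quasi-likelihood fit. The intervals of Chrm1 and Chrnb2 start just above 0, the interval of Chrm5 is the widest, and the others span 0.

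Among the nicotinic subunits, Chrnb2 and Chrna4 had the largest fold changes of the 9 genes, and neither passed. Chrnb2, on chromosome 3 at 89746195 to 89764632, was at 40.9, 43.7 and 34.9 CPM in n-Braf, against 36.2, 34.3 and 32.7 CPM in the controls. In n-Braf the first and second libraries were above all controls, and n-Braf 3 lay among them. The fold was 1.16 (95% interval 1.001 to 1.34), the log2 fold change 0.21 (SE 0.09), the unadjusted p 0.0492 and the adjusted p 0.732. Leaving out single libraries gave 0.14 to 0.29. The authors' deposited unadjusted p for Chrnb2 is 0.0784. The oligodendrocyte markers had their lowest mean in n-Braf 2 and their highest in control 3, the libraries with the highest and the lowest Chrnb2; their part in its level was not tested. Of its exon bases 16.3% overlap Adar, a gene on the other strand, which had a log2 fold change of 0.10 (SE 0.06) at 146 ± 8.70 CPM in n-Braf, against 136 ± 2.93 CPM in controls (SD, n = 3 each). The kit keeps strand, but the strand setting of the counting is not given in the sources used here, so reads of these genes may not have been told apart.

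Chrna4, on chromosome 2 at 181018380 to 181043546, was at 21.8, 20.1 and 13.0 CPM in n-Braf, against 17.1, 14.7 and 16.5 CPM in the controls. As in Chrnb2, n-Braf 1 and 2 were above all controls, but n-Braf 3 was the lowest of the 6. The log2 fold change was 0.19 (SE 0.18), with an adjusted p of 0.911 and a fold interval of 0.865 to 1.50. It was 0.38 without n-Braf 3 and 0.04 without n-Braf 1. With the neocortex markers as a covariate it was -0.083, and with age 0.49 (SE 0.21; adjusted p 0.735). The level of Chrna4 per exon length was 0.889, 0.768 and 0.623 times that of Chrnb2 in the n-Braf libraries, against 0.789, 0.713 and 0.839 times in the controls. The groups overlapped in this ratio, and n-Braf libraries gave both its highest and its lowest value.

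Chrna7, on chromosome 7 at 63098692 to 63212569, was at 32.3, 29.1 and 29.8 CPM in n-Braf, against 28.0, 33.4 and 28.3 CPM in the controls. Its levels were close in all 6 libraries and the fold of 1.02 had an interval of 0.880 to 1.18. The log2 fold change of 0.02 (SE 0.09) was -0.024 without n-Braf 1, -0.021 without control 1 and -0.014 without control 3.

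Chrna5, on chromosome 9 at 54980880 to 55007779, was covered by 85, 80 and 97 counts in n-Braf, against 73, 82 and 60 in the controls. That was 2.66, 2.52 and 3.30 CPM in n-Braf, against 2.72, 3.07 and 2.34 CPM in the controls, and the groups overlapped. The log2 fold change was 0.06 (SE 0.21), -0.068 without n-Braf 3 and -0.035 without control 3.

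Per kilobase of exon, all exons of a gene joined, the levels ran in the order Chrm1, Chrna7, Chrm3, Chrnb2, Chrm4, Chrna4, Chrm2, Chrm5 and Chrna5. Chrm1 averaged 24.6 ± 1.08 CPM per kb in n-Braf, against 22.1 ± 0.804 CPM per kb in the controls, and Chrna7 averaged 6.75 ± 0.377 in n-Braf and 6.63 ± 0.670 in the controls (SD, n = 3 each). Chrm1 stood above Chrna7 in every library, with no overlap. From Chrna7 down to Chrna4, each neighbour overlapped the next in its range over the 6 libraries, so their order was not resolved by level alone, although Chrna7 was above Chrm3 within each of the 6 libraries. Chrna4, at 2.60 to 4.34 CPM per kb, was again clear of Chrm2, at 1.20 to 1.58. Chrm5 overlapped both Chrm2 and Chrna5, at 0.747 to 1.06, but Chrm2 lay above Chrna5 without overlap. With the length of the longest transcript in place of all exons the order was the same, Chrna7, Chrm3 and Chrnb2 no longer overlapped each other, and Chrm2 and Chrna5 did.

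The lengths of Chrm4 and Chrm5 need care. GENCODE M21 gives each a single exon, of 1440 and 1599 bases, and both are whole multiples of a codon, which is a coding length without untranslated ends. RefSeq places the start of Chrm4 5060 bases upstream of the GENCODE start. Their counts were therefore divided by a coding length. The sources used here do not name the annotation behind the counts, which may include reads of untranslated ends.

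Within the muscarinic family Chrm1 made up 66.5% ± 2.34 of the summed level per kilobase in n-Braf and 64.0% ± 2.38 in the controls, and Chrm3 15.4% ± 2.26 in n-Braf and 16.9% ± 0.665 in the controls (SD, n = 3 each). The summed level of the Gq-coupled receptors was 5.99, 4.45 and 7.38 times that of the Gi-coupled ones in the n-Braf libraries, against 6.46, 5.74 and 4.32 times in the controls. The groups overlapped, and n-Braf 3 was highest. Within the nicotinic family Chrna7 made up 42.2% ± 3.38 in n-Braf and 44.7% ± 3.11 in the controls, and Chrnb2 29.6% ± 1.78 in n-Braf and 27.7% ± 1.31 in the controls. Each of these shares differed by less than the summed SDs of the groups. The shares depend on the length used. With the longest transcript, Chrna7 made up 48.8% in n-Braf and 51.4% in the controls, and Chrm3 20.3% in n-Braf and 22.1% in the controls. Chrm1 then made up 62.9% in n-Braf and 60.2% in the controls.

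**Figure D3:**
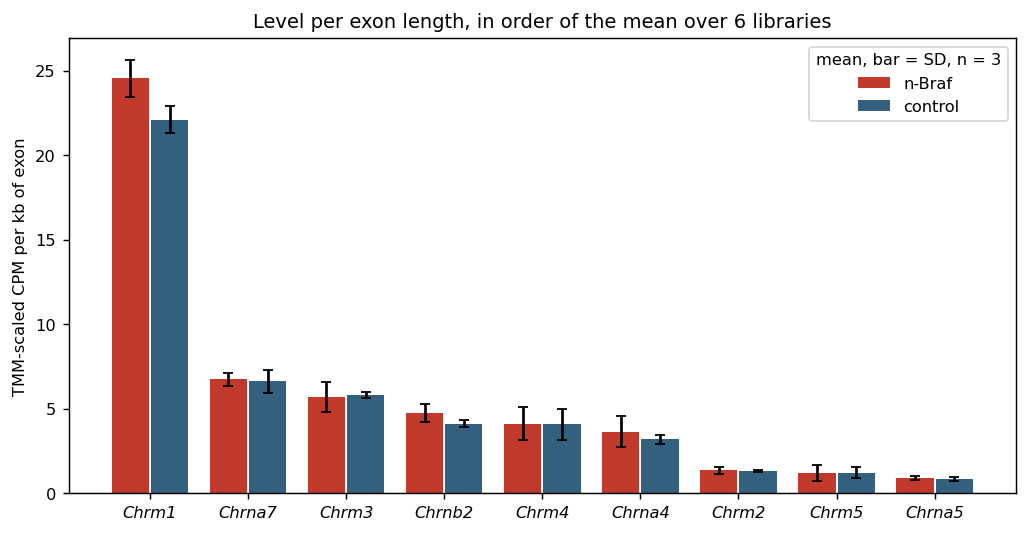
TMM-scaled CPM per kilobase of joined exons, mean of 3 libraries with SD, for n-Braf (red) and control (blue), ordered by the mean over all 6. Chrm1 averages 24.6 in n-Braf and 22.1 in the controls, and no other gene reaches 8.

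The library n-Braf 3 held the highest level of some receptors and the lowest of others. In it, Chrm1, Chrm3 and Chrna5 had their highest log2 level of the 6 libraries, at 0.14, 0.20 and 0.26 above the gene's mean. In the same library Chrm2, Chrm4, Chrm5 and Chrna4 had their lowest, at -0.15, -0.30, -0.57 and -0.38. The summed markers of pyramidal and granule neurons were highest in n-Braf 3 as well, with 4782 CPM. They summed to 3636 and 3933 CPM in n-Braf 2 and 1, and to between 3619 and 4076 CPM in the controls. Camk2a alone gave 2904 CPM of the n-Braf 3 sum. It peaked in that library, as did Prox1, C1ql2, Neurod2 and Zbtb20. Wfs1, Fibcd1 and Slc17a7 peaked elsewhere, with 80.8 CPM (control 3), 75.6 CPM (control 2) and 567 CPM (n-Braf 1). Those genes had 71.5, 73.1 and 486 CPM in n-Braf 3. Markers of the striatum summed to their lowest value there, 30.7 CPM, against 40.3 and 43.8 CPM in n-Braf 2 and 1 and 41.2 to 60.3 CPM in the controls. Neocortex layer markers summed to 233, 216 and 180.5 CPM in n-Braf 1, 2 and 3, and to 172.5 to 216 CPM in the controls. Of these 10 markers, 9 had log2 fold changes above 0, where 49% of all genes did. In edgeR's quasi-likelihood test 2 of them had an unadjusted p under 0.05 and 0 were called. Interneuron markers summed to 529 to 630 CPM in n-Braf and to 475 to 570 CPM in the controls. All 8 had log2 fold changes above 0, with 0 at an unadjusted p under 0.05. With the neocortex marker level as a covariate, 0 of the 9 receptors were called, and the log2 fold changes of Chrm2 (-0.074), Chrm3 (0.040), Chrm4 (-0.26) and Chrna4 (-0.083) changed sign. The part of the pyramidal, striatal and interneuron lists in the receptors' levels was not tested.

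**Figure D4:**
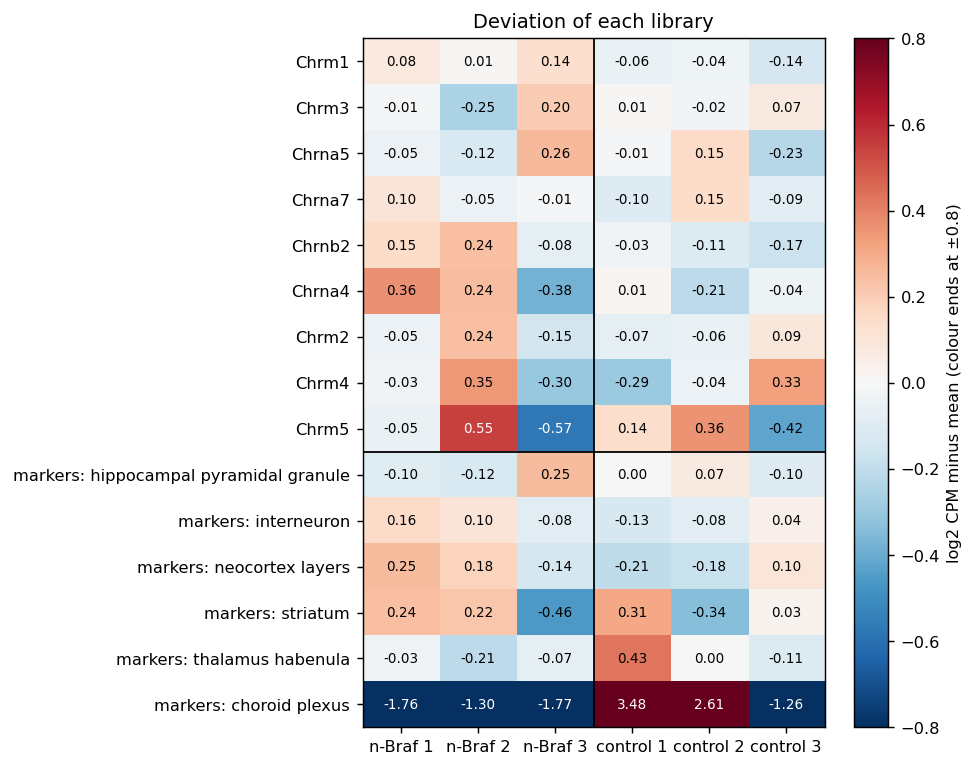
Log2 CPM of each receptor gene, and mean log2 CPM of each marker list, minus the mean over the 6 libraries, with n-Braf libraries left of the controls. In n-Braf 3, Chrm1, Chrm3 and Chrna5 are above their means, as is the pyramidal and granule list. Chrm2, Chrm4, Chrm5 and Chrna4 are below theirs there, as are the striatal list and all other marker lists shown. The likeness to the striatal list does not hold in every library. In control 1 that list is at 0.31 and Chrm4 at -0.29, and in control 2 the list is at -0.34 and Chrm5 at 0.36.

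For each receptor, the gene most alike in log2 CPM over the 6 libraries was sought among 123 genes of the pathway and marker lists. Over so few libraries the highest of many coefficients is large by selection, so these are descriptions. Chrm1 ran closest to Gnaq, which encodes the Gq alpha subunit (Pearson r = 0.97). Chrm2 ran with the receptor kinase Grk3 (0.87), Chrm3 with the microglial receptor P2ry12 (0.94), and Chrm4 with Slc32a1, the vesicular GABA transporter (0.93). Chrm5 ran with Lypd6 (0.90), Chrna4 with the interneuron factor Lhx6 (0.93), Chrna5 with the neuronal transcription factor Neurod2 (0.96), Chrna7 with the M-current subunit Kcnq3 (0.80) and Chrnb2 with the arrestin Arrb1 (0.95). Lhx6 shows what such a likeness rests on: it was at 12.5, 12.3 and 7.90 CPM in n-Braf, against 11.1, 9.65 and 11.5 CPM in the controls, low in n-Braf 3 like Chrna4.

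The rest of the cholinergic system was read from a list of 58 other genes, of which 46 were tested. edgeR's quasi-likelihood test called 0 of the 46 at an adjusted p of 0.05, and DESeq2 called 2, Prkcb and Lypd1, each with an adjusted p of 0.0218, where it called 0.425% of all genes with an adjusted p. The log2 fold change was above 0 in 32 and below 0 in 14, with a median of 0.08. An unadjusted p under 0.05 was found in 8 higher (3.09% of all genes) and 2 lower (3.73% of all genes). The groups did not overlap in 8 genes higher in n-Braf (6.09% of all genes) and in 2 lower (5.44% of all genes).

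Among other nicotinic subunits 4 of 12 were tested. Chrna2, a subunit of a class of hippocampal interneurons, was at 1.66, 2.11 and 2.59 CPM in n-Braf, against 3.58, 4.15 and 1.75 CPM in the controls, a log2 fold change of -0.58 (SE 0.32). The high values were those of controls 1 and 2, the libraries high in choroid plexus markers. Without both controls it was 0.27, a fit whose only control is control 3. That control lies below the n-Braf mean of 2.12 CPM, so the choice of libraries fixed this sign. With the choroid plexus covariate, which is high in the same controls 1 and 2, the log2 fold change of Chrna2 was 0.30. It was -0.073 with the neocortex covariate and -1.03 (SE 0.41) with age. The part of choroid plexus content in the level of Chrna2 was not tested. Chrna3 was at 0.37 (SE 0.28). Of the muscle subunits Chrna1 and Chrnb1 were tested, and 8 subunits were not analysed here.

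Of the genes that make or carry acetylcholine, Slc5a7, the choline transporter that defines cholinergic neurons, was covered by 12, 14 and 13 counts in n-Braf, against 11, 16 and 11 in the controls. It was the only one of 6 cholinergic neuron markers tested, and the 5 others, among them the synthesising enzyme gene Chat, were not analysed here. The general choline transporter Slc44a1 had a log2 fold change of -0.039 (SE 0.07). Of the enzymes that break acetylcholine down, Ache, acetylcholinesterase, was at 26.1, 26.4 and 22.8 CPM in n-Braf, against 20.5, 22.3 and 20.0 CPM in the controls. The groups lay apart, with a log2 fold change of 0.26 (SE 0.09) and an adjusted p of 0.663. Bche, butyrylcholinesterase, was at 5.79, 6.42 and 7.05 CPM in n-Braf, against 8.24, 7.29 and 8.25 CPM in the controls, at -0.31 (SE 0.13), also apart, with an adjusted p of 0.730.

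The proteins that assemble or modulate nicotinic receptors held the smallest p-values with the Gq effectors. Lynx1, a membrane-anchored brake on nicotinic channels, was at 142, 151 and 146 CPM in n-Braf, against 129, 116 and 112 CPM in the controls. The groups did not overlap, and the log2 fold change was 0.30 (SE 0.07) with an adjusted p of 0.527. Lypd1, a relative that also restrains nicotinic channels, went the other way at 35.7, 48.9 and 39.7 CPM in n-Braf, against 54.3, 61.4 and 57.1 CPM in the controls, with a log2 fold change of -0.48 (SE 0.11) and an adjusted p of 0.527. Of the 8 tested genes in this group, 6 had log2 fold changes above 0 and 2 below, with a median of 0.08.

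Below the receptors, the protein kinase C gene Prkcb was at 473, 430.0 and 474.5 CPM in n-Braf, against 362, 370.0 and 389 CPM in the controls. All n-Braf libraries were above all controls, with a log2 fold change of 0.30 (SE 0.07) and an adjusted p of 0.527. Itpr1, the calcium channel that answers phospholipase C, had a log2 fold change of 0.26 (SE 0.08). Of the 9 Gq effectors 8 had log2 fold changes above 0 and 1 below, with a median of 0.09. For the 8 Gi effectors the count was 5 above and 3 below, with a median of 0.03, Gnao1 at 0.15 (SE 0.07) and Gnai3 at -0.12 (SE 0.09). The M-current gene Kcnq5 was at 0.13 (SE 0.07). Of the 8 genes of desensitisation 7 were above 0, among them Rgs4, which speeds the switching off of G proteins, at 0.24 (SE 0.08), and the receptor kinase Grk6 at 0.16 (SE 0.07). In edgeR's quasi-likelihood test none of the genes in these groups passed the threshold, while DESeq2 called Prkcb.

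**Figure D5:**
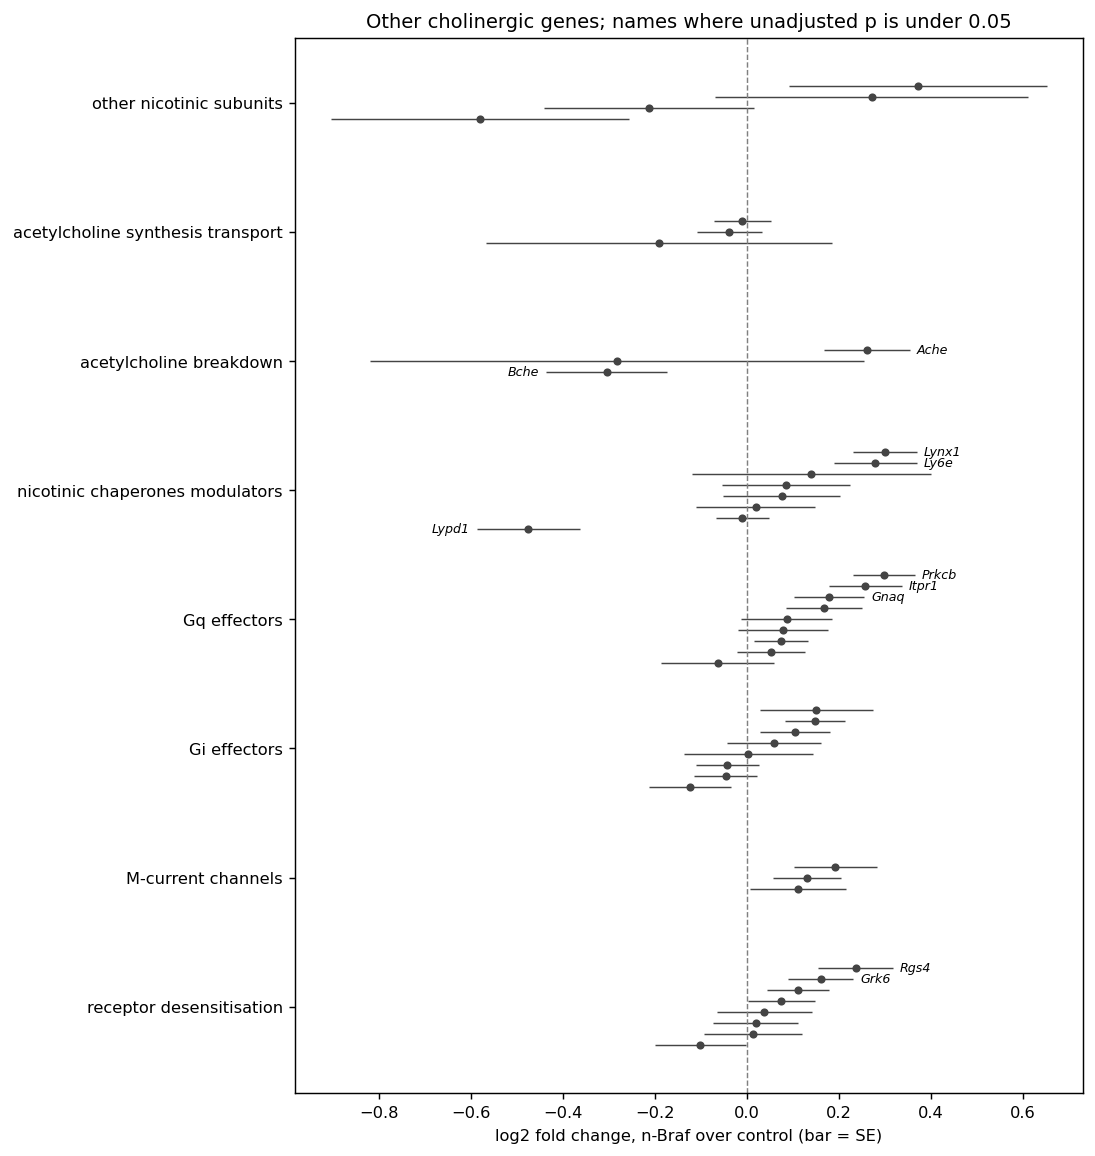
Log2 fold change, n-Braf over control (point), with its SE (line), of the 46 other cholinergic genes tested, grouped by role and named where the unadjusted p is under 0.05. Lynx1 at 0.30 and Lypd1 at -0.48 stand on opposite sides of 0, and none of the 46 passed the threshold in edgeR's quasi-likelihood test.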

How the data were processed

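Hippocampal RNA of 6 mice was sequenced with a strand-specific SMART-Seq kit, per the labels' protocols. Per the submitters' processing notes, bcl2fastq 2.20, fastp 0.20.1, STAR, RSEM and edgeR 3.36.0 were used with mm10; the sources used here give neither the annotation nor the strand setting. Expected counts per gene and library, not scaled, are what the deposited table holds. It also holds the authors' deposited log2 fold change, log2 CPM, p-value and adjusted p-value. Expected counts were rounded to whole numbers; Chrm1 and Chrnb2 were the 2 receptor genes with values that were not whole.

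Genes were filtered with filterByExpr (minimum count 10) and tested with edgeR 4.0.16 in R 4.3.3 (quasi-likelihood, legacy settings, TMM, group as the only term, all 6 libraries, Benjamini-Hochberg over all genes tested). The SE is the log2 fold change divided by the root of the F statistic, and 95% intervals use the test's degrees of freedom. Alternatives used DESeq2 1.42.0 and limma 3.58.1. The fit was run on simulated counts with folds larger than those of the 9 receptors. That run does not show how well differences as small as theirs are found. Members and lists were chosen with earlier results of these data known. Named were the 9 receptors, Braf, and in each list the 2 genes with the smallest unadjusted p. A gene selected this way is not reported here. Lengths and coordinates come from GENCODE M21 (GRCm38, the assembly of mm10), promoters from RefSeq. Every pair of libraries differed by a chi-square per degree of freedom of at least 8.89, so none was a copy. Precision is limited by 3 animals per group; counts of 35 to 97 limit Chrm5 and Chrna5.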

Additional observations from a re-analysis of the deposited data

How the results depend on the processing

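Over 20 alternatives the count of acetylcholine receptor genes called stayed at 0. For the other cholinergic genes it was 0 in 19 of them and 2 with DESeq2. Chrm1 and Chrnb2 kept their direction in all 20, from 0.06 to 0.21 and from 0.14 to 0.33. Leaving out 1 library at a time, the log2 fold change ran from -0.087 to 0.11 for Chrm2, -0.15 to 0.077 for Chrm3, -0.18 to 0.20 for Chrm4, -0.36 to 0.22 for Chrm5, -0.068 to 0.16 for Chrna5, -0.024 to 0.11 for Chrna7, -0.10 to 0.0006 for Slc44a1 and -0.29 to 0.0005 for Slc5a7. Other reversals were Chrm4 with library size alone (-0.0083). With age as a covariate they were Chrm5 (0.30), Chrna5 (-0.24) and Chrna7 (-0.034). Age, which differs between the groups, also moved Chrm4 to 0.50, Chrna4 to 0.49, Chrm2 to 0.28, Chrm3 to -0.24 and the median of the 9 to 0.28. With the choroid plexus covariate they were Chrm2 (-0.046), Chrm4 (-0.31), Chrm5 (0.57) and Chrna2 (0.30). With the neocortex covariate they were Chrm2 (-0.074), Chrm3 (0.040), Chrm4 (-0.26), Chrna4 (-0.083) and Slc44a1 (0.0076). Without control replicates 1 and 2 together they were Chrm2 (-0.064), Chrm4 (-0.30), Chrm5 (0.49) and Chrna2 (0.27). The cause was not tested. Braf passed the threshold with DESeq2, without legacy settings, without control 3 and at an adjusted p of 0.1.

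Deviations from the group means correlated at 0.145, -0.058 and -0.0109 between same-numbered libraries. Between differently numbered libraries they correlated at -0.196 to 0.232. So few coefficients cannot decide whether the replicate numbers pair the libraries. With the replicate block 0 receptor genes and 0 other cholinergic genes were called.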
